A study of Mus musculus with 12 samples.

Results

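The Hox genes are 39 of the 22202 protein-coding genes on chromosomes 1 to 19 and X of the mm9 mouse annotation, and were chosen by symbol alone: Hoxa, Hoxb, Hoxc or Hoxd followed by a number. They lie in 4 clusters. Hoxa holds 11 genes on chromosome 6 between 52105366 and 52210874, Hoxb 10 genes on chromosome 11 between 96055630 and 96229570, Hoxc 9 genes on chromosome 15 between 102751534 and 102867274, and Hoxd 9 genes on chromosome 2 between 74506367 and 74603200. The study mapped 6 histone modifications by ChIP-seq, which sequences the DNA pulled down with an antibody against a modified histone, in C2C12 cells. C2C12 is a mouse myoblast line, here of strain C3H at passages 15 to 18, whose cells fuse into multinucleated muscle fibres when serum is taken away. The myoblast group was near-confluent and growing with 10% serum, and the myotube group was taken about 5 days after serum withdrawal, when light trypsination parted myotubes from cells that had not fused. The labels name no transgene, knockdown or drug in either group, and both come from the same immortal line, so they show this line and not muscle of a mouse. There was 1 library for each modification and cell type, 12 in all, with no replicate and no input library among those used here. Every comparison of myotubes with myoblasts below is therefore between 2 libraries, no p-value is given, and the 95% intervals cover counting error only.

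Hox genes encode homeodomain transcription factors that give cells their position along the head-to-tail axis and along the limbs. Genes with low numbers act toward the head and genes with high numbers toward the tail and the tips of the limbs, and cells keep this code into adult life. The code is held in chromatin: Polycomb complexes place H3K27me3 over silent stretches of a cluster, while Trithorax-group complexes and transcription bring H3K4me3 to active promoters. H3K4me2 and H3K4me1 surround promoters and enhancers, H3K27ac marks those that are active, and H3K36me3 lies over the bodies of transcribed genes.

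Reads used ranged from 1857191 in the myoblast H3K27ac library to 7026942 in the myoblast H3K36me3 library. A level is the number of read-fragment midpoints within 1 kb either side of a transcription start site (TSS) over the mean of that library, so a level of 1-fold is the library mean. A level of 3-fold or more is called marked. At a TSS, 3 reads correspond to 2.06-fold in the myoblast H3K27ac library and to between 0.547-fold and 1.38-fold in the other myoblast libraries, so H3K27ac in myoblasts was measured most coarsely. As a check of the labels, H3K4me3 was at 3-fold or more at 3 of 9 differentiated muscle genes in myoblasts and at 9 of 9 in myotubes, where their summed level went from 25.4-fold to 439.1-fold. Genes of the myogenic lineage were marked at 6 of 6 TSSs in myoblasts and 5 of 6 in myotubes. Of markers of other cells, fibroblast genes were marked at 3 of 4 and 2 of 4 TSSs, with sums of 30.9-fold and 22.5-fold. Endothelial genes were marked at 2 of 4 and 0 of 4, with 12.9-fold and 6.21-fold. Blood genes were marked at 1 of 4 and 0 of 4, with 7.84-fold and 3.49-fold, and neuronal genes at 1 of 4 in both, with 13.8-fold and 11.3-fold. The lists differ in size, so their sums are not compared with each other. In myoblasts the median H3K4me3 level was 8.764-fold over the fibroblast genes and 1.845-fold over the differentiated muscle genes. Ptprc and Snap25 had no H3K4me3 read in myotubes. The part of such cells in the results was not tested, and in these bulk samples a mark in fewer cells and less of it per cell cannot be told apart.

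The 4 clusters fell into 2 pairs. Hoxa and Hoxc carried H3K4me3 and H3K27ac over long stretches and almost no H3K27me3, while Hoxb and Hoxd had H3K27me3 over most of their length and carried almost no H3K27ac. This division stood in both cell types. Of the TSSs, H3K27me3 was at 3-fold or more at 10 of 10 Hoxb and 9 of 9 Hoxd TSSs in myoblasts, and at 0 of 11 Hoxa and 0 of 9 Hoxc TSSs. The 19 marked TSSs are 48.7% of the members, against 10.3% of all genes in that library. In myotubes 7 of 10 Hoxb and 4 of 9 Hoxd TSSs were marked, 28.2% of the members against 6.94% of all genes. A comparison set was taken by symbol alone, as Fox, Tbx, Gata, Lhx, Irx or Nkx followed by a letter or number, and is called other developmental regulators below. These families hold developmental regulators that Polycomb also covers in many cell types, but a symbol match can take in genes of other function. The set was marked at 41 of 94 TSSs in myoblasts and at 18 of 94 in myotubes.

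**Figure D1:**
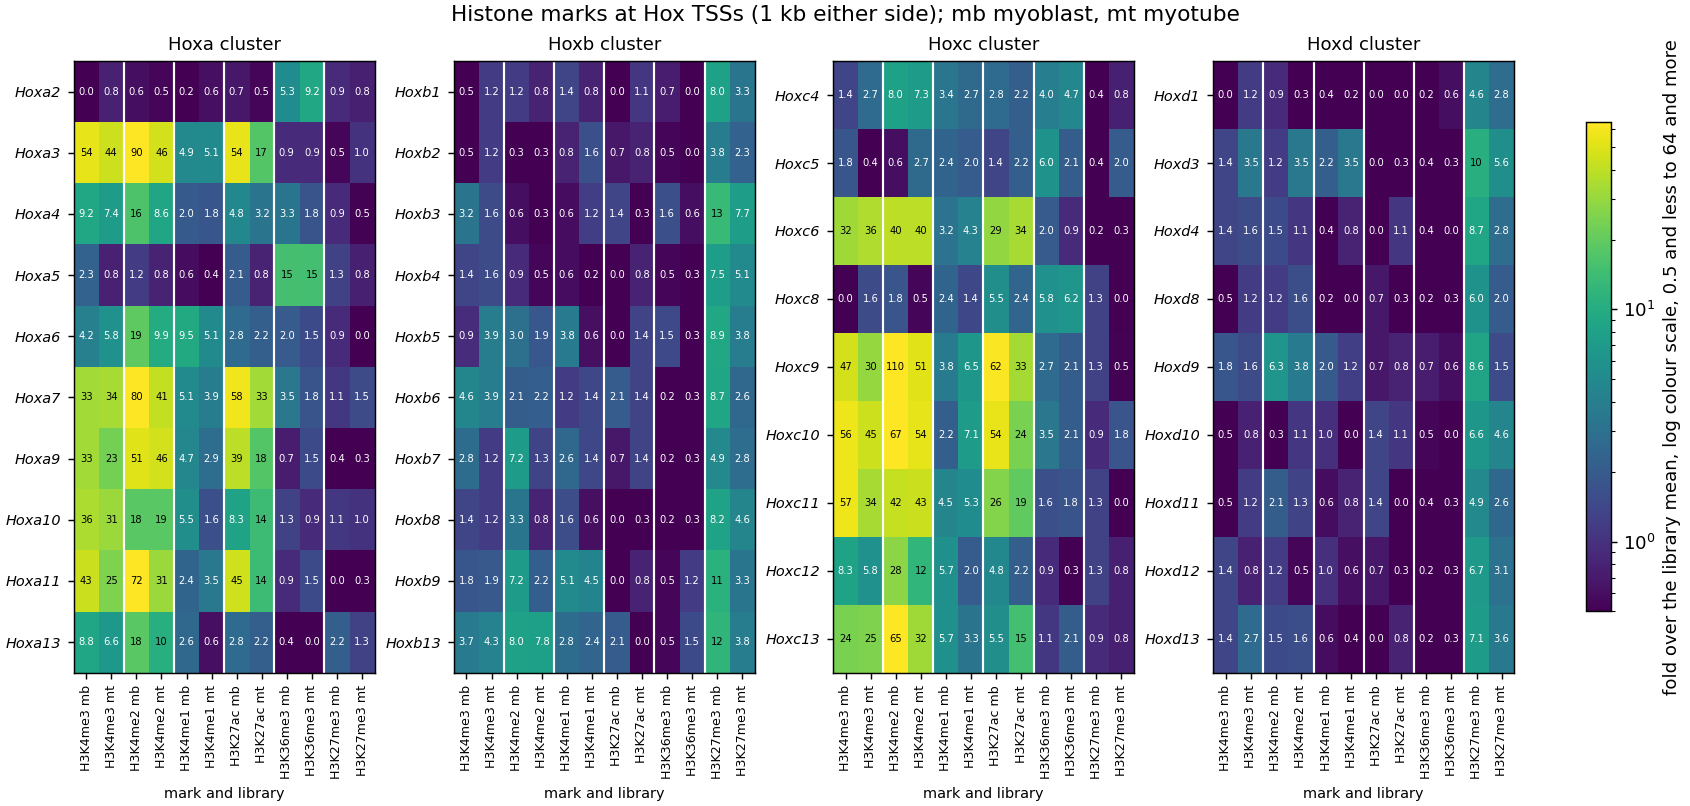
Levels at Hox TSSs (rows, ordered by cluster and number) for 6 modifications in myoblasts and in myotubes (columns), coloured by fold over the library mean. The 19 Hoxb and Hoxd genes are the ones with high H3K27me3, and H3K27ac of 3-fold or more is found at Hoxa and Hoxc genes only.

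H3K4me3 went the other way. It was at 3-fold or more at 18 of 39 TSSs in myoblasts and at 19 of 39 in myotubes, against 52.8% and 52.9% of all genes, so the Hox genes as a whole were marked about as often as other genes. The counts lay in 2 clusters: 9 of 11 Hoxa and 6 of 9 Hoxc TSSs were marked in each cell type, against 3 of 10 Hoxb TSSs in each and 0 of 9 and 1 of 9 Hoxd TSSs. The median level was 13.8-fold in myoblasts and 17.5-fold in myotubes over the Hoxa TSSs and 24.0-fold and 25.2-fold over the Hoxc TSSs. Over the Hoxb TSSs it was 1.61-fold and 1.55-fold, and over the Hoxd TSSs 1.38-fold and 1.16-fold. The rank correlation between the 2 cell types over the 39 genes was 0.839 for H3K4me3 and 0.807 for H3K27me3, which takes in the difference between the pairs of clusters. Over 1 kb bins inside a cluster the H3K27me3 values were 0.365 in Hoxb, 0.288 in Hoxd, 0.155 in Hoxa and 0.045 in Hoxc. Those of H3K4me3 were 0.828 in Hoxa, 0.835 in Hoxc, 0.266 in Hoxb and -0.022 in Hoxd. Neighbouring genes share a domain and each library's reads are counted at all of them, so these values are descriptions.

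The bases before the used TSSs of 3 genes are printed because these genes carry the contrast. Hoxa11 had among the highest H3K4me3 of its cluster in myoblasts, and Hoxb3 and Hoxd3 the highest H3K27me3 of theirs. The used TSSs of Hoxb3 and Hoxd3 lie inside the annotated genes, whose most upstream starts are at 96184640 and 74549986. That of Hoxd3 was chosen on only 3 and 9 H3K4me3 reads. Hoxa3, which had more H3K4me3 than Hoxa11, is left out because the bases before its TSS overlap an untranslated region of another annotated transcript. Each run is the 250 bases before the TSS in mm9, read 5′ to 3′ on the gene's strand, with each CG dinucleotide, the site of DNA methylation in mammals, in capitals. Hoxa11 lies on the minus strand at chr6:52196214-52196463, Hoxb3 on the plus strand at chr11:96189126-96189375 and Hoxd3 on the plus strand at chr2:74577426-74577675.
Hoxa11: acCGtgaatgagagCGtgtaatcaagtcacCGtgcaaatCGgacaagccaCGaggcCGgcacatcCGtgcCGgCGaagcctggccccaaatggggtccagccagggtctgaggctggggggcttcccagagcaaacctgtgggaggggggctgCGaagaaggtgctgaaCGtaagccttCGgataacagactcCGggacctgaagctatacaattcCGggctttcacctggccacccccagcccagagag
Hoxb3: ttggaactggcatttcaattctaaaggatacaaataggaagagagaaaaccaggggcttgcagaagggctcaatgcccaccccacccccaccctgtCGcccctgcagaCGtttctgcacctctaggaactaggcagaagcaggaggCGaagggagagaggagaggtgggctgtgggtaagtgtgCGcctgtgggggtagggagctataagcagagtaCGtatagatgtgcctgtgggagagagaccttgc
Hoxd3: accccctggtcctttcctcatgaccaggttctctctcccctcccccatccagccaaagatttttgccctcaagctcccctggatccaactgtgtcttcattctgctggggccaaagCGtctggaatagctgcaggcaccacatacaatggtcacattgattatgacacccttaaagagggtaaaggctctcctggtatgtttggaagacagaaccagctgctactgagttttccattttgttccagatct

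The windows held 14 CG dinucleotides at Hoxa11, 5 at Hoxb3 and 1 at Hoxd3. These 3 do not stand for their clusters: over the wider 2 kb window at the TSS the median number of CG dinucleotides was 143 at Hoxd, 100 at Hoxa, 88 at Hoxc and 62 at Hoxb genes, against 63 at all genes. The intervals of these medians overlapped between all 4 clusters. In the 250 bases before the TSS the order was another, with medians of 18 at Hoxa, 14 at Hoxc and 9 at Hoxb and at Hoxd genes, against 10 at all genes, and the intervals overlapped there too. The median share of G and C over the 2 kb window was 55.5% for the Hox genes and 51.4% for all genes. In the 250 bases before the TSS it was 56.0% and 55.6%. On both strands of the 250 bases, the letters TGATNNAT, a Hox and Pbx pairing site, occurred at 4 of 39 Hox genes, Hoxb1, Hoxb9 and Hoxc11 among them, or 10.3% against 6.71% of all 22197 promoters with sequence. CAGCTG, an E-box bound by myogenic factors such as MyoD, occurred at 9 genes (Hoxa3, Hoxa5, Hoxa6, Hoxb4, Hoxb5, Hoxb6, Hoxc6, Hoxc10 and Hoxd3), or 23.1% against 11.9%. The looser E-box CANNTG, which includes CAGCTG, occurred at 61.5% of the Hox promoters and 62.0% of all, and TATAAA at 3 genes (Hoxa9, Hoxc12 and Hoxd13), or 7.69% against 11.9%. A match of letters is a description and says nothing of binding.

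Among the H3K27me3-covered members, Hoxb3, which patterns the hindbrain and the pharynx, was the highest in both cell types. Its TSS at position 96189376 of chromosome 11 had 74 reads in myoblasts and 30 in myotubes, levels of 13.5-fold (10.6 to 16.9) and 7.65-fold (5.16 to 10.9). Hoxb13, the tail-most gene of its cluster and known from the prostate, had 66 and 15 reads, or 12.03-fold and 3.83-fold. Hoxb9, a thoracic gene, had 61 and 13 reads, or 11.1-fold and 3.32-fold. All 10 Hoxb genes were lower in the myotube library. Hoxb2, a hindbrain gene, was the lowest of them with 21 and 9 reads, or 3.83-fold and 2.30-fold. Of Hoxd, Hoxd3 was the highest with 57 and 22 reads, or 10.4-fold and 5.61-fold, and Hoxd1 the lowest in myoblasts with 25 and 11 reads, or 4.56-fold and 2.81-fold. Hoxd13, which shapes the digits, had 39 and 14 reads, or 7.11-fold and 3.57-fold. In Hoxa and Hoxc the highest values were 2.19-fold at Hoxa13 in myoblasts (12 reads) and 2.04-fold at Hoxc5 in myotubes (8 reads), so every member of one pair of clusters was above every member of the other in myoblasts. Hoxa11 had 0 reads in myoblasts, which allows up to 0.547-fold with 3 reads as the limit, and 1 in myotubes, where Hoxa6, Hoxc8 and Hoxc11 had 0 reads.

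The ratio of myotube to myoblast levels is given with 1 read added to each count and is called where it is at least 2 or at most 0.5 with 20 or more reads in the 2 libraries together. For H3K27me3, 19 members, all of Hoxb and Hoxd, had enough reads, and their ratios ran from 0.204 to 0.719. The median was 0.525 (0.343 to 0.600) against 0.787 (0.770 to 0.7997) over all genes with enough reads, and 0.467 over the other developmental regulators. At most 0.5 was reached by 9 of the 19, or 5 Hoxb and 4 Hoxd genes, against 20.5% of all genes, and at least 2 by 0, against 2.37%. The minimum of reads was met by these members mainly through the myoblast library, so the counts describe them and are no support for a change. For 13 of the 19 the interval of the ratio lay below 1.

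The member with the lowest ratio was Hoxd9, a gene of limb and lumbar patterning with its TSS at position 74535737 of chromosome 2. Its 47 myoblast reads and 6 myotube reads are 8.57-fold (6.29 to 11.4) and 1.53-fold (0.562 to 3.33), a ratio of 0.204 with an interval of 0.0624 to 0.419. Hoxb6 had 48 and 10 reads, or 8.75-fold and 2.55-fold, and a ratio of 0.314 at its used TSS. The difference was smaller at its other annotated start, 96160269, with 48 and 23 reads, or 8.75-fold and 5.87-fold. Hoxb9, Hoxb13 and Hoxd4 followed with ratios of 0.316, 0.334 and 0.343. Hoxd8 (0.370), Hoxb1 (0.435), Hoxb5 (0.448) and Hoxd12 (0.479) were the other members called. The smallest differences were at Hoxd10, a gene of the limb, with 36 and 18 reads and a ratio of 0.719, and at Hoxb4, known from blood stem cells, with 41 and 20 reads and a ratio of 0.6997, and the intervals of both included 1. With 2 kb either side of the TSS the ratio at Hoxb6 was 0.708, and at the most upstream TSS of Hoxd4 it was 0.785. Both calls are lost there, as are those of Hoxd8 (0.567) and Hoxd12 (0.731) with 2 kb either side. Scaling by windows inside peaks left 6 of the 9 calls, without Hoxb1 (0.526), Hoxb5 (0.541) and Hoxd12 (0.578), and adding 5 reads to each count ended the calls of the same 3 genes.

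**Figure D2:**
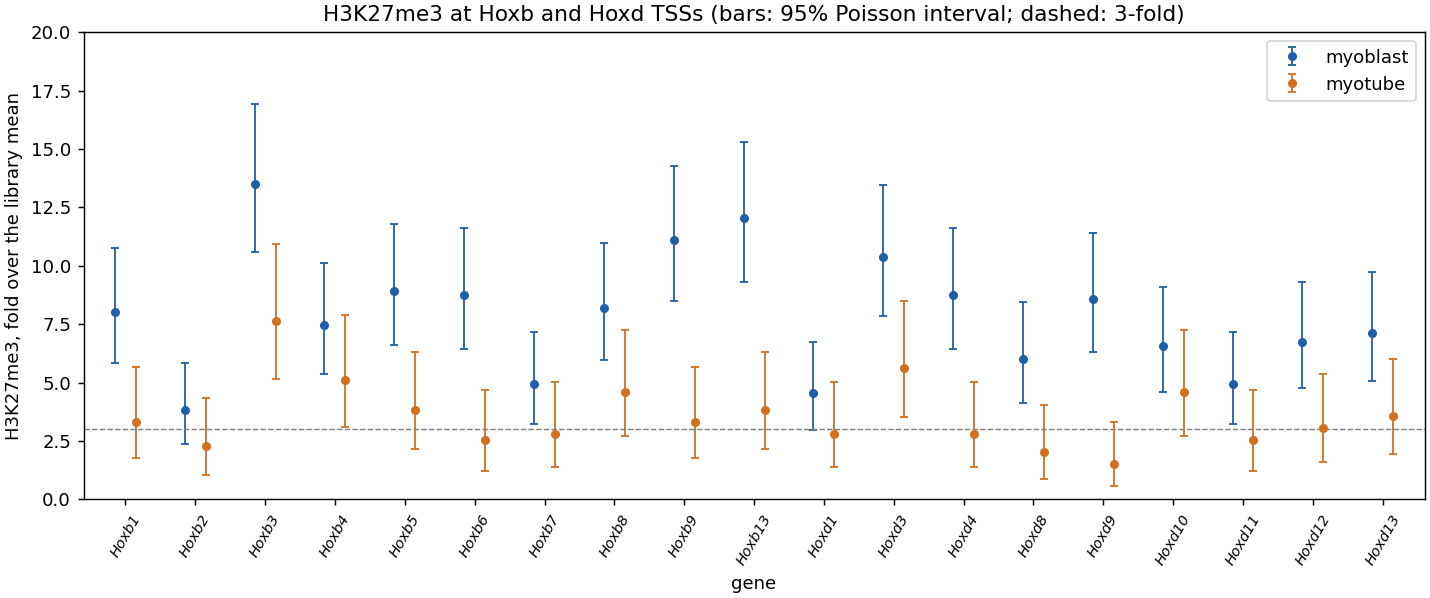
H3K27me3 at the 19 Hoxb and Hoxd TSSs in fold over the library mean (vertical axis), with exact Poisson 95% bars for the myoblast (blue) and myotube (orange) libraries. The myotube point lies below the myoblast point at each gene, with the widest gap in proportion at Hoxd9 (8.57-fold and 1.53-fold).

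H3K27me3 was lower in the myotube library by more at the TSSs than between them. Over all of Hoxb the level was 7.06-fold in myoblasts and 4.78-fold in myotubes, a ratio of 0.677 (0.638 to 0.718), and over all of Hoxd 6.98-fold and 4.38-fold, a ratio of 0.628 (0.578 to 0.682). Within 1 kb of the annotated TSSs of Hoxb there were 591 and 214 reads and the ratio was 0.507 (0.431 to 0.594), while in the remainder of the cluster it was 0.713 (0.668 to 0.761). For Hoxd the ratios were 0.511 (0.433 to 0.602) in the windows and 0.677 (0.615 to 0.745) outside them. In both clusters the counting intervals of windows and remainder did not overlap. Beyond the Hox clusters, a ratio of at most 0.5 was found at 20.5% of all genes' TSS windows and in 9.82% of 1 kb bins of the genome. Both shares are of those with 20 or more reads, and the widths differ. Whether the gap at Hoxb and Hoxd is particular to them was not tested. The same 2 libraries gave ratios of 0.909 (0.746 to 1.10) over Hoxa and 0.997 (0.836 to 1.19) over Hoxc, where the levels were near the library mean, and 1.10 and 1.204 when scaled by windows inside peaks.

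Most of Hoxb and Hoxd stayed at 3-fold or more H3K27me3 in myotubes, and the higher levels became fewer. Of the 1 kb bins of Hoxb, 87.9% were at 3-fold or more in myoblasts and 78.7% in myotubes, and of Hoxd 95.9% and 81.4%. At 5-fold or more the shares were 71.8% and 47.7% in Hoxb and 81.4% and 39.2% in Hoxd. In Hoxa and Hoxc the shares were 1.89% and 1.72% in myoblasts and 3.77% and 5.17% in myotubes, while 5.31% and 7.47% of the bins of the genome were at that level. The longest unbroken run of such bins was 35 kb in Hoxb and 29 kb in Hoxd in myoblasts, and 19 kb and 15 kb in myotubes, where the library is shallower. With both libraries thinned to the depth of the smallest one, the shares at 3-fold or more were 82.2% in myoblasts and 62.1% in myotubes in Hoxb, and 86.6% and 58.8% in Hoxd. Of the bins with 20 or more reads, 37 of 135 in Hoxb and 18 of 79 in Hoxd had a ratio of at most 0.5, against 9.82% of such bins of the genome. These bins, too, met the minimum of reads mainly through the myoblast library, so the counts describe them and are no support for a change.

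**Figure D3:**
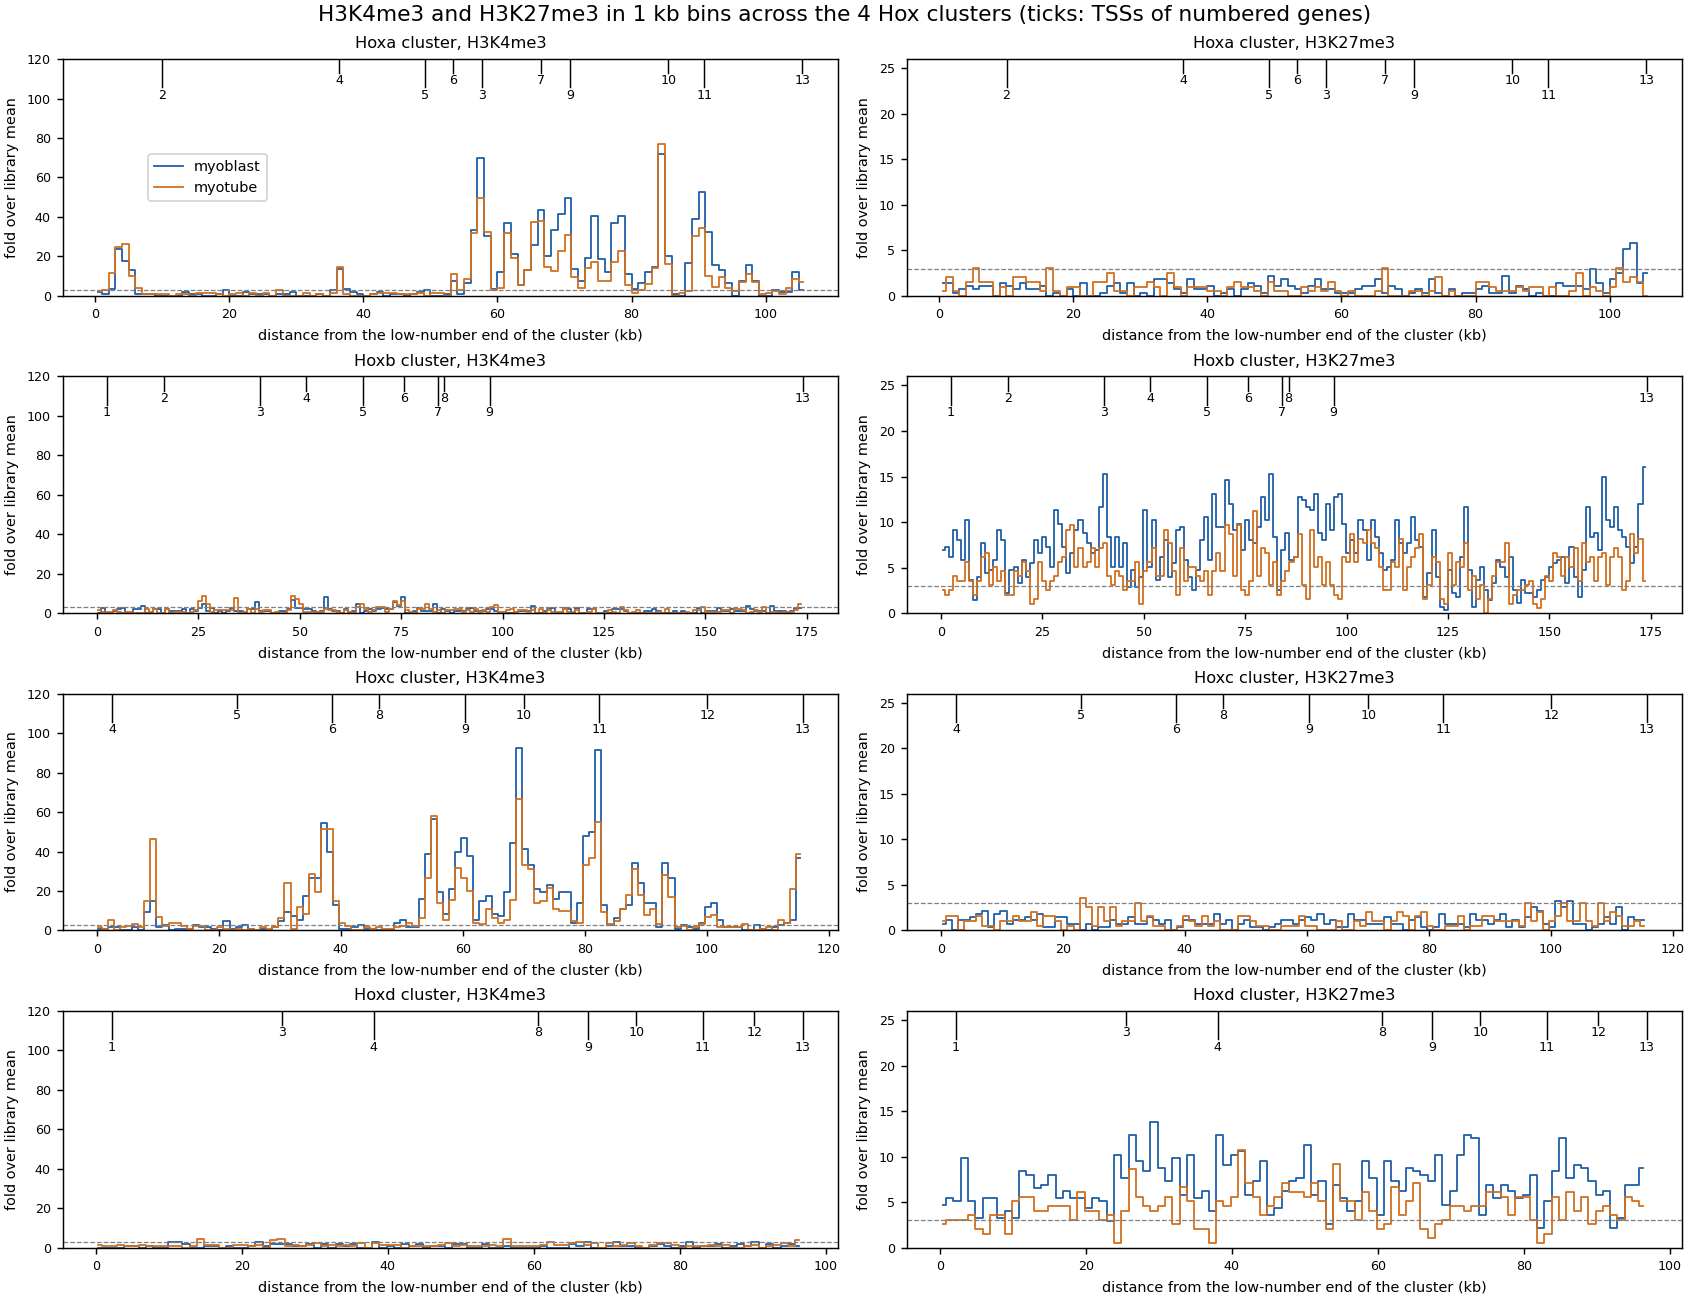
H3K4me3 (left) and H3K27me3 (right) in 1 kb bins across each cluster, in fold over the library mean against the distance in kb from the end with the low-numbered genes, for myoblasts (blue) and myotubes (orange), with TSSs as numbered ticks. H3K4me3 reaches 92.2-fold in Hoxc and 76.8-fold in Hoxa and does not pass 8.53-fold in Hoxb or 4.66-fold in Hoxd, while H3K27me3 is at 3-fold or more over most of Hoxb and Hoxd.

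The edges of the covered domains lay outside the Hoxb and Hoxd genes. Beyond Hoxb13 H3K27me3 was 9.04-fold in myoblasts and 5.61-fold in myotubes over the first 10 kb, still 4.81-fold and 3.88-fold between 40 and 50 kb, and 1.46-fold and 1.22-fold between 50 and 60 kb. Beyond Hoxb1 it went from 6.34-fold and 5.87-fold over the first 10 kb to 0.875-fold and 0.918-fold between 20 and 30 kb. Around Hoxd the domain reached farther. Beyond Hoxd1 it was 5.69-fold and 5.31-fold between 50 and 60 kb and 0.911-fold and 0.510-fold between 60 and 70 kb, and beyond Hoxd13 2.63-fold and 2.86-fold between 70 and 80 kb and 0.510-fold and 0.408-fold between 90 and 100 kb. Hoxa had the reverse arrangement at its high-numbered end: the cluster was at 0.926-fold and 0.841-fold, while the 10 kb beyond Hoxa13 were at 5.58-fold and 4.49-fold, and another stretch between 50 and 60 kb, the side of Evx1, at 7.87-fold and 4.64-fold. Beyond Hoxc13 the first 10 kb were at 3.24-fold and 3.57-fold. On the low-numbered sides of Hoxa and Hoxc the first 10 kb were at 1.203-fold and 1.02-fold and at 0.984-fold and 0.663-fold.

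**Figure D4:**
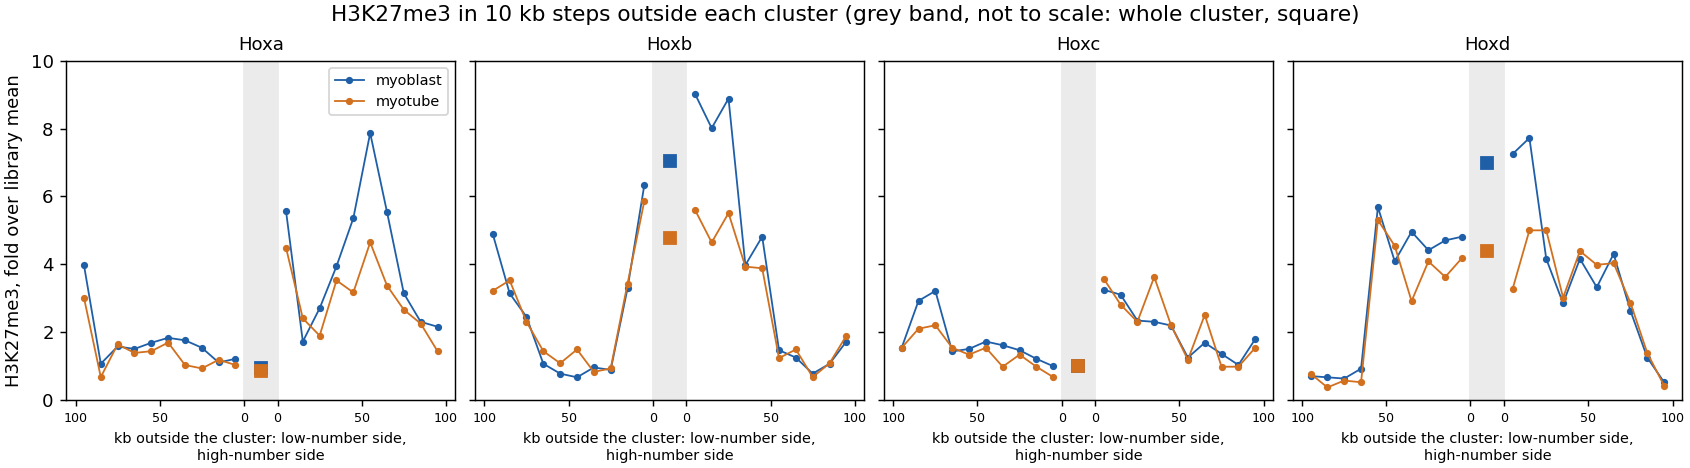
H3K27me3 in steps of 10 kb up to 100 kb outside each cluster, in fold over the library mean, with the whole cluster as a square in the grey band (not to scale). The Hoxb and Hoxd domains run past the genes on both sides, and at Hoxa the high-numbered flank (5.58-fold in the first 10 kb in myoblasts) is above the cluster itself (0.926-fold).

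In Hoxa and Hoxc the H3K4me3 was concentrated toward the middle and the high numbers. Hoxc11, of lumbosacral patterning, was the highest member in myoblasts with 123 reads, or 56.7-fold (47.1 to 67.7), and had 88 reads, or 34.1-fold (27.4 to 42.1), in myotubes. Hoxc10, a lumbar and hindlimb gene, had 122 and 115 reads, or 56.3-fold and 44.6-fold, and was the highest in myotubes. Hoxa3, of the pharynx and thymus, had 117 and 114 reads, or 54.0-fold and 44.2-fold. Its used TSS lies between those of Hoxa6 and Hoxa7 and inside the annotated transcript 2700086A05Rik. Hoxc11, Hoxc10 and Hoxa3 did not differ from each other beyond their intervals in myoblasts. Hoxc9, a thoracic gene, followed with 47.0-fold and 29.9-fold and Hoxa11, of the forelimb and uterus, with 43.4-fold and 24.8-fold. Hoxa10, Hoxa7, Hoxa9 and Hoxc6 lay between 32.3-fold and 35.5-fold in myoblasts and between 23.3-fold and 35.7-fold in myotubes, and Hoxc13, known from hair, had 24.0-fold and 25.2-fold. Hoxa4, Hoxa6, Hoxa13 and Hoxc12 had between 4.15-fold and 9.22-fold in myoblasts.

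No H3K4me3 call was made at 5 members of these 2 clusters: Hoxa2, Hoxa5, Hoxc4, Hoxc5 and Hoxc8. The used TSS of Hoxc4, chosen on 3 and 7 H3K4me3 reads, lies inside its own annotated gene. The upstream start of Hoxc4, at 102849367, had 1.845-fold and 1.164-fold, while a 1 kb bin between the starts had 14.8-fold and 46.6-fold. Hoxa2, which sets the identity of the second pharyngeal arch, and Hoxc8, of the brachial level, had 0 reads in myoblasts, which allows up to 1.38-fold with 3 reads as the limit, and 2 and 4 reads in myotubes. The same 5 TSSs had the 5 highest H3K36me3 levels of all 39 members in myoblasts. Hoxa5, which patterns the lung and the thorax, had 84 and 51 reads of H3K36me3, or 15.3-fold (12.2 to 18.9) and 15.1-fold (11.3 to 19.9). Hoxa2 had 5.27-fold and 9.19-fold with a ratio of 1.74 (1.02 to 3.00), Hoxc8 5.82-fold and 6.23-fold, and Hoxc4 4.001-fold and 4.75-fold. Hoxc5 had 6.00-fold and 2.08-fold, or 33 and 7 reads. The TSSs of Hoxa2 and Hoxa5, with those of Hoxa4 and Hoxa6, lie inside the annotated span of Hoxa3, those of Hoxa4, Hoxa5 and Hoxa6 also inside 2700086A05Rik, and those of Hoxc5, Hoxc6, Hoxc8 and Hoxc9 inside that of Gm20398, so H3K36me3 there cannot be assigned to a gene of its own.

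H3K36me3 was at 3-fold or more at 8 of 39 Hox TSSs in myoblasts and 4 of 39 in myotubes, against 5.89% and 5.27% of all genes, and each of them was in Hoxa or Hoxc. With the libraries thinned to the smallest one, the myoblast count was 4. Its ratio was at most 0.5 at 1 of 9 members with enough reads, Hoxc5 with 0.384 (0.129 to 0.795) and 0.515 with 5 reads added, against 12.7% of all genes, and at least 2 at 0, against 9.24%. The median of the 9 was 0.815 against 0.978 over all genes. Over the whole of Hoxa the level was 3.32-fold and 3.11-fold, and over Hoxc 3.19-fold and 2.26-fold with a ratio of 0.709 (0.633 to 0.794). In Hoxb and Hoxd it was between 0.349-fold and 0.636-fold, below the library mean.

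The H3K4me3 ratio was called at 0 of 16 members with enough reads in either direction, against 3.44% of all genes at 2 or more and 7.75% at 0.5 or less. The median was 0.810 against 0.866 over all genes. The interval of the ratio lay below 1 at 3 members, Hoxa11 with 0.576 (0.410 to 0.795), Hoxc11 with 0.604 (0.452 to 0.798) and Hoxc9 with 0.637 (0.466 to 0.862). The highest ratio was 1.35 at Hoxa6, on 9 and 15 reads. Over whole clusters the levels were 10.7-fold and 8.23-fold at Hoxa and 12.7-fold and 10.5-fold at Hoxc, ratios of 0.772 and 0.822. No read was found at Hoxd1 in myoblasts, and Hoxc5 had the lowest myotube count, 1 read. Over Hoxd the levels were 0.876-fold and 1.32-fold, or 92 and 165 reads, a ratio of 1.51 (1.16 to 1.97) at levels close to the library mean.

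H3K27ac was at 3-fold or more at 14 of 39 Hox TSSs in myoblasts and 12 of 39 in myotubes, against 51.3% and 47.4% of all genes. The 14 were 7 Hoxa and 7 Hoxc genes, and the 12 were the same 7 Hoxa genes with Hoxc6, Hoxc9, Hoxc10, Hoxc11 and Hoxc13. No Hoxb or Hoxd TSS had more than 2.06-fold, which is 3 reads in myoblasts, and 9 of them had no myoblast read. At Hoxd1 there were 0 reads in both libraries, which allows up to 2.06-fold and 0.812-fold with 3 reads as the limit. Hoxc9 was the highest in myoblasts with 90 reads, or 61.9-fold (49.8 to 76.1), and had 123 reads, or 33.3-fold (27.7 to 39.7), in myotubes. Hoxa7 had 57.8-fold and 32.8-fold, and Hoxa3 and Hoxc10 had 54.4-fold each in myoblasts and 17.3-fold and 24.1-fold in myotubes. In myotubes Hoxc6, of the thoracic level, was the highest with 126 reads, or 34.1-fold (28.4 to 40.6), after 28.9-fold in myoblasts. Hoxc11 had 26.2-fold and 19.5-fold, and Hoxa10 8.26-fold and 13.8-fold. Lower were Hoxa4 with 4.82-fold and 3.25-fold, Hoxc8 with 5.51-fold and 2.44-fold, and Hoxc12 with 4.82-fold and 2.17-fold, each on fewer than 20 reads.

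The members did not all move the same way in H3K27ac. The ratio was at most 0.5 at 4 of the 11 members with enough reads, against 41.5% of all genes, and at least 2 at 1, against 5.20%. Hoxa11 had 65 and 51 reads, or 44.7-fold and 13.8-fold, and a ratio of 0.310 (0.210 to 0.452). Hoxa3 had a ratio of 0.320 (0.226 to 0.449), Hoxc10 of 0.443 and Hoxa9 of 0.448. Against these, Hoxc13 at the end of its cluster had 8 and 55 reads, or 5.51-fold (2.38 to 10.9) and 14.9-fold (11.2 to 19.4), a ratio of 2.45 (1.28 to 6.58). Hoxa10 had a ratio of 1.57 with an interval that included 1. The direction at Hoxa10 depended on the TSS, as its other annotated start, at 52184938, had 50 and 38 reads, or 34.4-fold and 10.3-fold. The median of the 11 ratios was 0.565 and that of all genes 0.570, so the median Hox gene was close to that of this pair of libraries as a whole. Over whole clusters H3K27ac was 9.87-fold and 6.37-fold at Hoxa and 11.8-fold and 8.22-fold at Hoxc, ratios of 0.645 and 0.699. Hoxb and Hoxd went the other way at levels below the library mean. Hoxb had 0.435-fold and 0.641-fold, a ratio of 1.47 (1.09 to 2.02) on 55 and 206 reads. Hoxd had 0.341-fold and 0.464-fold, a ratio of 1.36 (0.855 to 2.24) on 24 and 83 reads. The call at Hoxc13 rests on 8 myoblast reads and is lost with 5 reads added to each count, and at the most upstream TSS of Hoxa9 the ratio was 1.01.

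**Figure D5:**
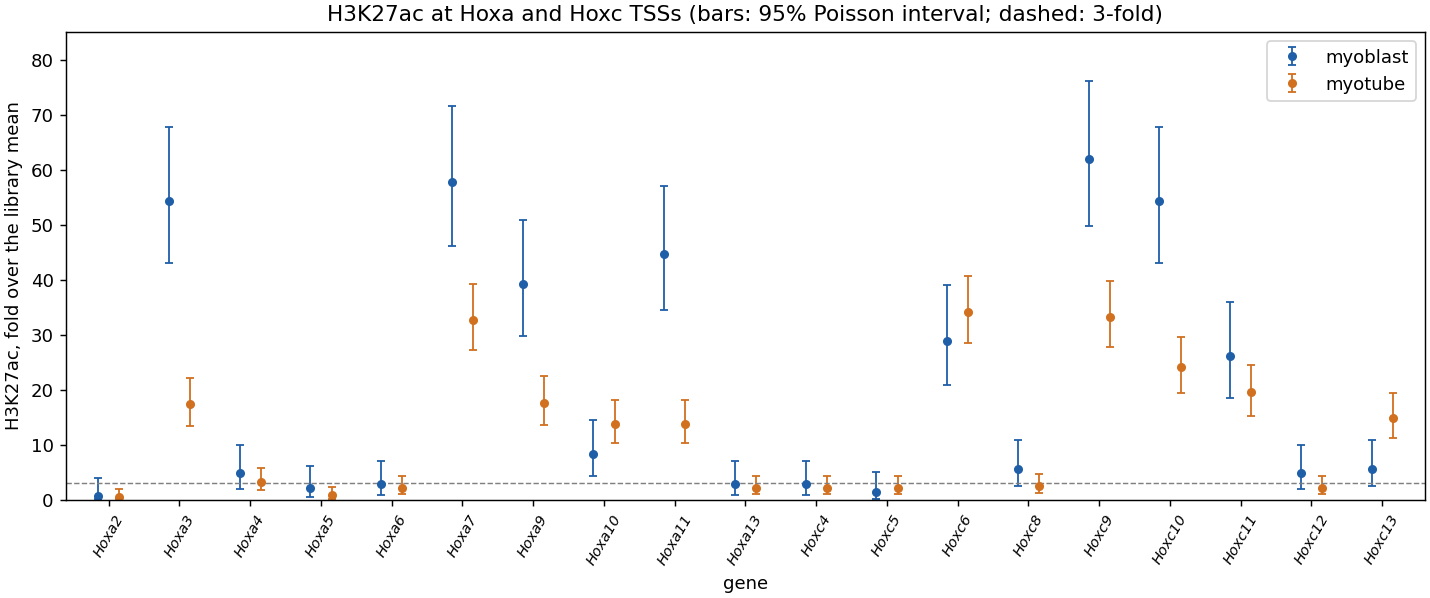
H3K27ac at Hoxa and Hoxc TSSs in fold over the library mean (vertical axis), with exact Poisson 95% bars for the myoblast (blue) and myotube (orange) libraries. Myoblast points are above at Hoxa3 (54.4-fold and 17.3-fold) and Hoxa11 (44.7-fold and 13.8-fold), and the myotube point is above at Hoxc13 (5.51-fold and 14.9-fold).

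H3K4me2 was at 3-fold or more at 21 of 39 Hox TSSs in myoblasts and 19 of 39 in myotubes, against 59.5% and 56.6% of all genes. Hoxc9 had the highest level of any modification at a member, 370 reads or 110.2-fold (99.3 to 122.1) in myoblasts, with 191 reads or 51.4-fold in myotubes. In myotubes Hoxc10 was the highest with 53.5-fold. The lowest level was 1 read in each library, at Hoxb2 and Hoxd10 in myoblasts and at Hoxb2, Hoxb3 and Hoxd1 in myotubes. In the clusters covered by H3K27me3, Hoxb13 had 8.05-fold and 7.80-fold, while Hoxb9 had 7.15-fold and 2.15-fold, Hoxb7 7.15-fold and 1.35-fold, and Hoxd9 6.26-fold and 3.77-fold. The ratio was at most 0.5 at 6 of the 20 members with enough reads, against 36.3% of all genes, and at least 2 at 0, against 2.34%. The 6 were Hoxb7 with 0.217 (24 and 5 reads), Hoxb9 with 0.325 (24 and 8 reads), Hoxa11 with 0.427, Hoxc12 with 0.442, Hoxc9 with 0.467 and Hoxc13 with 0.496. The count depended on the scaling: inside peaks only Hoxb7 and Hoxb9 were left, with the other 4 between 0.618 and 0.719, and outside peaks there were 13. The highest ratio was 1.03 at Hoxc11, and the median of the 20 was 0.553 against 0.593 over all genes. Over whole clusters the ratios were 0.608 in Hoxa, 0.582 in Hoxb, 0.741 in Hoxc and 0.981 in Hoxd, and those of Hoxc and Hoxd were 1.07 and 1.42 when scaled by windows inside peaks.

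H3K4me1 was at 3-fold or more at 13 of 39 TSSs in myoblasts and 12 of 39 in myotubes, against 35.2% and 34.5% of all genes. Hoxa6 was the highest in myoblasts with 48 reads, or 9.48-fold, and had 25 reads, or 5.10-fold, in myotubes. Hoxc10 was the highest in myotubes with 35 reads, or 7.14-fold, after 11 reads, or 2.17-fold, and was the 1 member of 20 with a ratio of at least 2 (3.10, 1.63 to 7.17), against 8.80% of all genes. At most 0.5 was reached by 3 members, Hoxb5 with 0.207 (19 and 3 reads), Hoxa10 with 0.321 (28 and 8 reads) and Hoxc12 with 0.379 (29 and 10 reads), against 18.7% of all genes. The median of the 20 ratios was 0.877 against 0.871 over all genes. Over whole clusters they were 0.906 in Hoxa, 0.796 in Hoxb, 1.12 in Hoxc and 1.04 in Hoxd. Each lay on the other side of 1 under another scaling, with 1.22 for Hoxa and 1.07 for Hoxb inside peaks and 0.905 for Hoxc and 0.843 for Hoxd outside them. The members at 0.5 or less then numbered 6 outside peaks, and those at 2 or more 3 inside them. The lowest levels were at Hoxd8, with 1 read in myoblasts and 0 in myotubes, at Hoxa2 with 1 read in myoblasts and at Hoxd10 with 0 in myotubes.

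Within Hoxc, 3 bins of 1 kb, named after their values were seen, had more H3K4me3 in the myotube library while the cluster as a whole had less. Of the bins with 20 or more H3K4me3 reads, the ratio was at least 2 in 3 of 48 in Hoxc and in 0 of 36 in Hoxa, against 13.9% of such bins of the genome, and at most 0.5 in 5 and 7 of them, against 9.38%. The first, chr15:102857534-102858533, lies inside Hoxc4 between its annotated TSSs and holds no TSS. It had 16 and 60 reads of H3K4me3, or 14.8-fold and 46.6-fold, a ratio of 3.02 (1.79 to 5.87). H3K27ac there was 28.9-fold and 56.3-fold, the highest bin of the clusters in myotubes. The second, chr15:102835534-102836533 inside Hoxc6, had 9.22-fold and 24.1-fold of H3K4me3, and the third, chr15:102752534-102753533 in Hoxc13, 5.53-fold and 21.0-fold. H3K4me1 had a ratio of at least 2 in 15 of 66 bins of Hoxc and 5 of 34 of Hoxa, against 17.1% of such bins of the genome, and of at most 0.5 in 5 and 6 of them, against 25.0%.

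Both H3K4me3 and H3K27me3 at 3-fold or more were found at 3 of 39 members in each cell type, against 2.16% of all genes in myoblasts and 0.838% in myotubes. Among the other developmental regulators they were found at 11 of 94 and 4 of 94. Of the TSSs marked by H3K27me3 in myoblasts, 15.8% of the Hox TSSs also had H3K4me3, against 20.9% over all genes and 26.8% over those regulators. In myotubes the shares were 27.3%, 12.1% and 22.2%. In myoblasts they were Hoxb3 (3.23-fold H3K4me3 on 7 reads, 13.5-fold H3K27me3), Hoxb6 (4.61-fold on 10 reads, 8.75-fold) and Hoxb13 (3.69-fold on 8 reads, 12.03-fold). In myotubes they were Hoxb5 (3.88-fold on 10 reads, 3.83-fold), Hoxb13 (4.27-fold on 11 reads, 3.83-fold) and Hoxd3 (3.49-fold on 9 reads, 5.61-fold). Only Hoxb13 was in both sets. The H3K4me3 levels lie just above the threshold, and the used TSS was chosen for having the most H3K4me3 reads. With the most upstream TSS, Hoxb3 and Hoxd3 drop out, which leaves Hoxb6 and Hoxb13 in myoblasts and Hoxb5 and Hoxb13 in myotubes. The counts were 0 in both cell types with 5-fold as the threshold and 0 and 1 with 2 kb either side of the TSS. Marks on the same nucleosomes and marks in different cells cannot be told apart.

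Annotated alternative starts gave 73 TSSs for the 39 members, and 18 members had several. Starts of the same gene could differ widely. The used TSS of Hoxa3 at position 52163066 had 54.0-fold H3K4me3 in myoblasts, and its start at 52122648, far downstream, had 0.461-fold with 4.91-fold of H3K36me3. Hoxc6 had 32.3-fold at 102828688, 37.8-fold at 102830960 and 0.461-fold at 102839910.

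The authors' MACS peaks, called on each library by itself, overlapped the windows of 12 members in each cell type for H3K4me3, of 18 in myoblasts and 16 in myotubes for H3K4me2, of 9 and 1 for H3K4me1, and of 3 and 2 for H3K36me3. For the other modifications the 2 myoblast lists appear exchanged. The track line that heads the list filed under H3K27me3 names H3K27ac, and that of the list filed under H3K27ac names H3K27me3. Inside the peaks filed under H3K27me3, H3K27ac was 36.4-fold over its library mean and H3K27me3 0.804-fold. Inside those filed under H3K27ac, H3K27me3 was 6.76-fold and H3K27ac 0.588-fold. As deposited, peaks overlapped 11 members for H3K27me3 and 18 for H3K27ac in myoblasts, and with the lists exchanged 18 and 11. In myotubes the counts were 2 and 11. The levels above are read counts and do not use these lists.

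MicroRNAs of 3 families lie within the clusters, and their mature sequences are shown because they show which genes share a seed, the bases that pair with targets. Of the seeds printed, that of miR-196 was found in clusters of both kinds. The sequences are from RefSeq (GRCm38.p6) with the seed, bases 2 to 8, in capitals, and were matched to mm9.
miR-10a-5p: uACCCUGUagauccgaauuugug
miR-10b-5p: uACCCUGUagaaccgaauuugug
miR-196a-5p: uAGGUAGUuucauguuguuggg
miR-196b-5p: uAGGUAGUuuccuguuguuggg
miR-615-3p: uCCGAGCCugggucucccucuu

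The miR-10 pair share the seed ACCCUGU, with miR-10a at chr11:96178500-96178522 in Hoxb and miR-10b at chr2:74564131-74564153 in Hoxd, both on the plus strand. The miR-196 family share AGGUAGU: miR-196a comes from chr11:96126501-96126522 in Hoxb and from chr15:102803796-102803817 in Hoxc, both on the plus strand, and miR-196b from chr6:52180128-52180149 on the minus strand in Hoxa. miR-615-3p is at chr15:102845400-102845421 on the plus strand in Hoxc. Their levels followed the clusters. Around the start of Mir196a-2 in Hoxc, H3K4me3 was 16.1-fold and 8.15-fold and H3K27me3 0.729-fold and 0 reads, while around Mir196a-1 in Hoxb, which yields the same mature sequence, H3K4me3 was 0 reads and 1.55-fold and H3K27me3 8.93-fold and 7.65-fold. Mir196b in Hoxa had 31.4-fold and 14.4-fold of H3K4me3. Mir10a had 8.20-fold and 5.10-fold of H3K27me3 and Mir10b 9.30-fold and 4.85-fold. Mir615 had 2.31-fold and 0.388-fold of H3K4me3 and 7.64-fold and 7.12-fold of H3K36me3. The counts at these hairpins are within 1 kb of their 5′ end and do not locate the promoter of the primary transcript.

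The proteins that bind DNA with Hox factors, of the Pbx, Meis and Pknox families, had H3K4me3 of 3-fold or more at 9 of 9 TSSs in both cell types and H3K27me3 at 0 of 9. Meis1 was the highest in myoblasts with 50.3-fold and Meis2 in myotubes with 50.04-fold, and the lowest were Pbx4 with 8.76-fold in myoblasts and Pknox2 with 5.04-fold in myotubes. Homeobox genes that are linked or related to the clusters (Evx, Gsx, Pdx and Cdx) resembled Hoxb and Hoxd: H3K27me3 was at 3-fold or more at 7 of 8 in myoblasts and 5 of 8 in myotubes, and H3K4me3 at 0 of 8. Gsx2 was the highest in myoblasts with 10.9-fold, and Cdx1 the lowest in both with 2.01-fold and 1.79-fold. Evx1, beside Hoxa13 and the highest in myotubes, had 7.84-fold and 5.61-fold of H3K27me3 and Evx2, beside Hoxd13, 7.66-fold and 4.08-fold. Of 9 genes flanking the clusters, H3K4me3 was at 3-fold or more at 5 in both cell types, with Lnp beside Hoxd the highest in myoblasts (42.4-fold, and 29.1-fold in myotubes) and Calcoco1 beside Hoxc in myotubes (30.9-fold and 69.8-fold). The lowest were Calcoco2 with 0 reads in myoblasts and Smug1 with 0 in myotubes. Skap1, beside Hoxb, was the 1 flanking gene with H3K27me3, at 8.02-fold and 5.61-fold.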

How the data were processed

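Reads of 6 histone modifications in C2C12 myoblasts and myotubes, 1 library each, were aligned by the authors to mm9 with Mosaik at default parameters, and unique alignments were kept. The deposited files list 1 line per aligned read of 34 bases, so the values are counts. What was merged into each file, and whether duplicates were removed, is not given in the sources used here. The deposited MACS peaks, called by the authors on each library, carry a score within their own list. MACS settings are not given in the sources used here.

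Reads on chromosomes 1 to 19 and X were extended to 150 bp, which is shorter than the fragments of about 250 bp because those include adaptors, and fragment midpoints were counted. Libraries had been amplified for 15 PCR cycles, so reads need not be independent molecules. Each gene had 1 TSS, that with the most H3K4me3 reads in both libraries together. This choice favours H3K4me3 at genes with several starts. Genes with 2 entries were merged by symbol. Intervals at 95% are Poisson for a level, conditional binomial for a ratio of raw counts, and from order statistics for a median, all exact. Ratios were scaled by total reads, and the read added to both counts moves the ratio of low counts toward that of the library totals. No test was possible with 1 library per group. The genes and lists were chosen with earlier results of these data known. Given in full were, for each modification, the members with the highest and lowest level, those with the largest rise and fall, those with H3K4me3 and H3K27me3 together, those with H3K27ac at 3-fold or more and those whose ratio was called. Of the partner lists the highest and lowest were named. The non-coding genes Hotair, Hottip and Hotairm1 are not analysed here, so 6 of 9 in that list were counted. Alternatives changed 1 choice at a time, and used the peak lists by the name in their track line. Results for 1 gene and 1 promoter sequence are not reported here. The share of soft-masked bases was planned and not computed. The ratio step was tested on simulated counts. Versions were scipy 1.17.1, numpy 2.4.6, matplotlib 3.10.9 and pandas 2.3.3, under Python 3.11.15.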

Additional observations from a re-analysis of the deposited data

How the results depend on the processing

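No paired analysis was possible because each modification had 1 library per cell type. Over 113 results and 740 alternative values, 618 stayed within the interval of the main value or within 1.5 times a count, and 118 moved. Another 4 turned, that is, crossed 1 from a ratio that was called or whose interval left 1 out. A cluster ratio whose interval included 1 could cross 1 and still be among the 618, as that of H3K27me3 over Hoxa did inside peaks. Under every alternative run, the share of bins with H3K27me3 was higher in Hoxb and Hoxd than in Hoxa and Hoxc. Depth limits H3K27ac in myoblasts most, where 3 reads at a TSS are 2.06-fold, and H3K4me3 at Hoxb and Hoxd, where the members had between 0 and 11 reads. For the values that follow, the cause was not tested unless the alternative's own construction shows it.

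With windows outside peaks as the background, which lowers the denominator, the median level at Hox TSSs was 20-fold for H3K4me2, 5.84-fold for H3K4me1, 5.58-fold for H3K27ac and 1.81-fold for H3K36me3 in myoblasts and 3.76-fold for H3K27ac in myotubes. The numbers at 3-fold or more were then 32, 26, 24 and 13 for the same modifications in myoblasts, and 24 for H3K27ac and 15 for H3K36me3 in myotubes. With a threshold of 2-fold they were 22 for H3K4me1 in myoblasts, 19 for H3K27me3 and 8 for H3K36me3 in myotubes. With 5-fold they were 6 and 5 for H3K4me1 in myoblasts and myotubes, 3 for H3K27me3 in myotubes and 4 for H3K36me3 in myoblasts. Thinned to the smallest library, H3K36me3 in myoblasts gave 4.

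Members with both H3K4me3 and H3K27me3 numbered 5 in each cell type at 2-fold, 0 in each at 5-fold, and 0 in myoblasts and 1 in myotubes with 2 kb either side. Members with a deposited peak, counted with the myoblast lists exchanged, were 11 for H3K27ac and 18 for H3K27me3. With the peak over the TSS itself they were 2 and 0 for H3K4me1 in myoblasts and myotubes and 0 for H3K27me3 in myotubes, and with a score of at least 100 they were 5, 0 and 0, with 1 for H3K36me3 in myoblasts.

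The share of bins with H3K27me3 at 3-fold or more in myoblasts and myotubes was, at 2-fold, 94.2% and 91.4% in Hoxb, 100% and 92.8% in Hoxd, 6.90% and 12.9% in Hoxc, and 11.3% in Hoxa in myotubes. At 5-fold it was 71.8% and 47.7% in Hoxb, 81.4% and 39.2% in Hoxd, 0.0% and 0.0% in Hoxc, and 0.0% in Hoxa in myotubes. With bins of 2 kb it was 86.2% in Hoxb in myotubes, 100% in Hoxd in myoblasts, 0.0% in Hoxc in both and 0.0% in Hoxa in myotubes, and with bins of 500 bp 88.7% in Hoxd in myoblasts. Thinned to the smallest library it was 62.1% in Hoxb, 58.8% in Hoxd and 1.72% in Hoxc in myotubes, and 86.6% in Hoxd in myoblasts.

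The median H3K27me3 ratio over Hox TSSs was 0.604 with 5 reads added, 0.636 with no minimum of reads and 0.634 when scaled by windows inside peaks, and the H3K4me2 median was 0.355 when scaled by windows outside peaks. Scaling by windows inside peaks multiplied the H3K4me2 ratios by 1.447, the H3K4me1 ratios by 1.344 and the H3K27me3 ratios by 1.207, and scaling by windows outside peaks multiplied those of H3K4me2 by 0.643 and of H3K4me1 by 0.808. So the ratios of whole clusters for H3K4me2 were 0.8795, 0.842, 1.07 and 1.42 in Hoxa, Hoxb, Hoxc and Hoxd inside peaks, where Hoxc and Hoxd crossed 1, and 0.391, 0.374, 0.477 and 0.631 outside them. For H3K4me1 they were 1.22, 1.07, 1.51 and 1.40 inside, where Hoxa and Hoxb crossed 1, and 0.732, 0.643, 0.905 and 0.843 outside, where Hoxc and Hoxd did. The intervals of Hoxd for H3K4me2, and of Hoxa and Hoxd for H3K4me1, had included 1. H3K27me3 inside peaks gave 0.817 in Hoxb, 1.204 in Hoxc and 0.758 in Hoxd. H3K36me3 gave 0.827 in Hoxa and 0.626 in Hoxc inside peaks, and 1.05 in Hoxa outside. The H3K27ac ratio of Hoxa9 was 1.01 at its most upstream TSS.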
